A study of Mus musculus with 15 samples.

Results

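The expression of each gene in the choroid plexus of mice heterozygous for Add1 was set against the midpoint of Add1 null and wild-type mice. For every gene the mean of the heterozygous arrays was compared with the average of the wild-type mean and the null mean. Of 19938 genes with a probe set that names 1 gene (the brightest where there were several), 10069 lay above the filter on low values (log2 value over 5.33 in at least 5 arrays), and all 15 arrays of the series entered. The animals were 5 wild-type, 5 heterozygous and 5 null (knockout) mice on the C57BL/6J strain, labelled male and 3 weeks old, an age chosen to precede hydrocephalus. Plexus was dissected from the fourth ventricle, as a misprint in the design text is read here, and each group has 5 arrays. The deleted part of Add1 and the way the allele was made have no entry in the sources used here.

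Alpha-adducin, the product of Add1, caps the fast-growing ends of actin filaments and recruits spectrin to them in the membrane skeleton. The choroid plexus is a sheet of secretory epithelium over a vascular stroma, and it produces most cerebrospinal fluid. When gene dosage acts additively, a heterozygote lies at the midpoint of the homozygotes; where the wild-type allele is dominant it lies near wild type, and where it lies outside both homozygotes the pattern is called over- or underdominant. Levels are RMA values on the log2 scale throughout, and a difference of 1 is a doubling. A position of 0 means that the heterozygous mean equals wild type, 0.5 the midpoint and 1 the null mean.

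Several arrays stood apart. Null arrays 1 and 5 read 9.09 and 9.69 for Xist, the RNA of the inactive X chromosome of females, against 3.11 to 3.88 in the other 13, and 3.19 to 4.27 for the Y-linked Eif2s3y, Uty and Kdm5d against 6.92 to 7.95, which goes against their male label. In heterozygous array 1 the mean of 8 cerebellar neuron markers was 7.93, and in the other 14 arrays at most 6.40. Epithelial identity was clear in all arrays, with Ttr at 12.85 to 13.19, Kcnj13 at 12.24 to 12.72 and Folr1 at 11.21 to 11.49. The whole part of the number in each sample's description, whose meaning is not given, had its highest value in null samples (483, against 451 for wild type and 460 for heterozygotes), so it was partly aligned with genotype. The labels speak of separate mice but not of litters, and p-values measure the spread between these arrays.

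Add1 itself lay at the midpoint. Its wild-type arrays read 7.96, 8.04, 7.78, 7.81 and 8.0, its heterozygous arrays 7.68, 7.68, 7.74, 7.92 and 7.79, and its null arrays 7.66, 7.74, 7.76, 7.46 and 7.41. Heterozygous values overlapped with both other genotypes, while every null value lay below every wild-type value. The means were 7.92 ± 0.116, 7.76 ± 0.0996 and 7.61 ± 0.161 (SD, n = 5 each), so each lost allele went with a step of -0.16 and the difference from the midpoint was 0.00 (SE 0.0685; exact two-sided permutation p = 1 over 3003 regroupings of 5 against 10 arrays, of which the smallest possible p is 0.000333). Signal remained in null mice, and a probe set can read parts of a transcript that a deletion leaves in place. The nearest tested gene on either side of Add1 on chromosome 5 also had a heterozygous mean near the midpoint. Tnip2, an inhibitor of NF-kappaB signalling, was at position 0.40 (5.39 ± 0.108, 5.51 ± 0.174 and 5.69 ± 0.208 in wild-type, heterozygous and null mice) but its difference between null and wild type did not pass (adjusted p = 0.0654). Mfsd10, a membrane transporter, rose by 0.28 in null mice (adjusted p = 0.0485) and was at 0.643. Among the 50 tested genes on each side of Add1, 9 of 100 (9%) passed between null and wild type. The share was 5.86% on the rest of chromosome 5 and 7.81% on other chromosomes. These 9 had a median position of 0.228, on the wild-type side, beside 0.1 and 0.133 in those regions.

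Few single genes could be placed off the midpoint, and in all of those called the heterozygous mean lay outside both homozygous means, as it did in 59.9% of all tested genes. limma called 6 genes, which is 0.0596% of those tested, 2 with the heterozygote higher (0.0199%) and 4 with it lower (0.0397%), at adjusted p between 0.0268 and 0.0438. Without adjustment 1299 genes (12.9%) had a p under 0.05, 604 above the midpoint (6%) and 695 below it (6.9%); these became 449 (4.46%) and 432 (4.29%) without heterozygous array 1 and 988 (9.81%) and 1003 (9.96%) without null array 2. The higher genes were Mrto4, a nucleolar protein of large ribosomal subunit assembly, and the gene model Gm5771, which is named although the rule for names leaves out gene models. The lower ones were Bckdhb, a catalytic subunit of the enzyme that commits branched-chain amino acids to breakdown, the pyrimidine nucleotide kinase Cmpk1, the elastic fibre glycoprotein Fbln5 and the neutral amino acid transporter Slc6a15.

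Bckdhb showed a trough in heterozygotes. It read 7.32, 7.32, 7.18, 7.39 and 7.50 in heterozygous arrays, against 7.73, 7.59, 7.61, 7.61 and 7.61 in wild-type and 7.91, 7.62, 7.84, 7.80 and 7.74 in null arrays. All heterozygous values lay below all 10 others, and the mean was 0.36 below the midpoint (SE 0.0571, adjusted p = 0.0268), while null and wild type differed by 0.15 (adjusted p = 0.166). Cmpk1 had the same shape, with heterozygous values of 7.84, 7.90, 7.82, 7.93 and 7.90, wild-type values of 8.05, 8.13, 8.44, 8.10 and 8.10 and null values of 8.34, 8.31, 8.36, 8.33 and 8.22. Here too no heterozygous array reached the other genotypes (difference from the midpoint -0.36, SE 0.0577, adjusted p = 0.0268). Gm5771 had a peak: 6.04, 6.08, 5.88, 6.08 and 5.86 in heterozygotes, above the highest wild-type value of 5.73 and the highest null value of 5.75 (0.46 above the midpoint, SE 0.0698, adjusted p = 0.0268).

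The other called genes followed the difference between homozygotes and then passed wild type. Mrto4 read 7.10, 7.23, 7.22, 7.08 and 6.90 in wild-type, 7.12, 7.39, 7.29, 7.46 and 7.42 in heterozygous and 6.50, 6.68, 6.81, 6.77 and 6.86 in null arrays. Heterozygous values lay above all null values and overlapped wild type only through heterozygous array 1 (0.42 above the midpoint, SE 0.0719, adjusted p = 0.0394). Fbln5 was 8.03, 7.97, 8.22, 7.96 and 7.80 in heterozygotes, within or just below the wild-type range of 7.88 to 8.25, and 9.21, 9.01, 8.87, 9.08 and 8.57 in null arrays (-0.53 from the midpoint, SE 0.092, adjusted p = 0.0394). Slc6a15 read 8.22, 8.50, 8.70, 8.56 and 8.32 in heterozygotes, where wild-type arrays ran from 8.49 to 8.80 and null arrays from 9.01 to 9.55 (-0.52 from the midpoint, SE 0.0916, adjusted p = 0.0438). For both genes heterozygous and null arrays were apart and heterozygous and wild-type arrays overlapped.

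**Figure D1:**
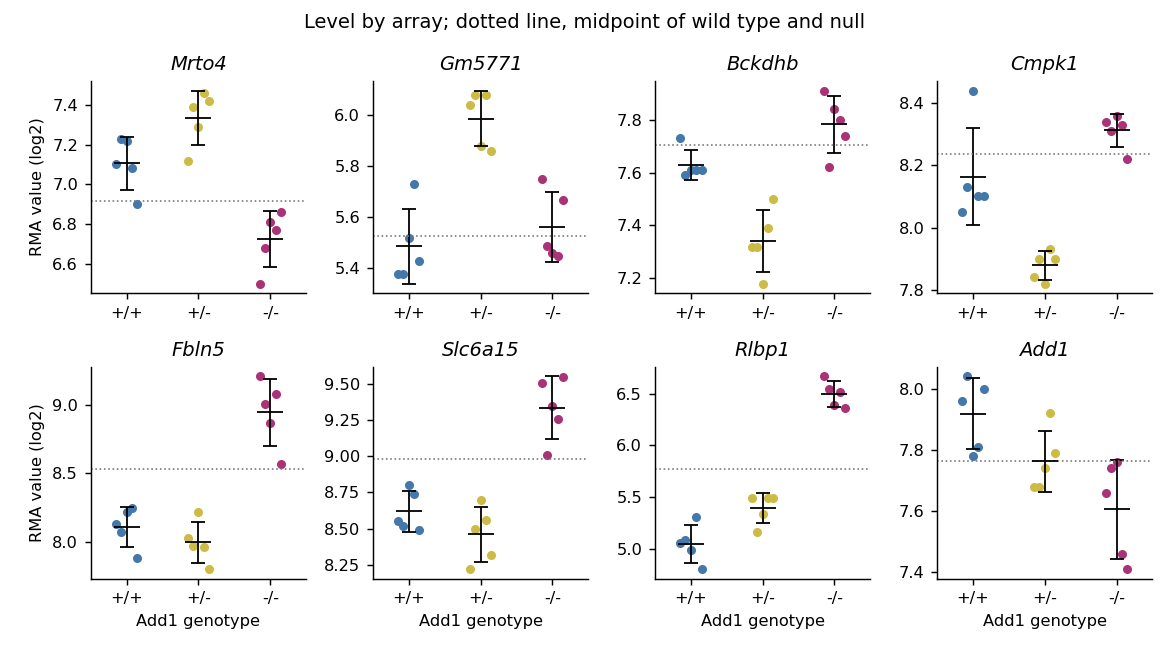
RMA log2 level of the 6 genes called off the midpoint, of Rlbp1 and of Add1 in each array by Add1 genotype, with the mean and SD (n = 5) in black and the midpoint of wild type and null as a dotted line. Heterozygous values of Bckdhb and Cmpk1 lie below all others and those of Gm5771 above all others, while Add1 lies on its midpoint.

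These calls rested on single arrays. With wild-type array 1, heterozygous array 2 or 4 or null array 3 left out, limma called 0 genes, where 1293, 1193, 1258 and 1142 had an unadjusted p under 0.05. Over all arrays the same model with each gene's own variance also called 0. limma called 1 gene without heterozygous array 1, 2 without heterozygous array 5 and 3 without wild-type array 3 or 4 or heterozygous array 3. Without null array 2 limma called 126, or 1.25%. With each of the 15 arrays omitted in turn, Gm5771 passed 10 times, Bckdhb in 9, Cmpk1 in 8, Mrto4 in 6, Fbln5 in 5 and Slc6a15 in 2, and their differences kept within 0.39 to 0.475 for Mrto4, -0.589 to -0.484 for Fbln5, -0.578 to -0.458 for Slc6a15, -0.404 to -0.324 for Bckdhb, -0.374 to -0.326 for Cmpk1 and 0.439 to 0.494 for Gm5771. Without null arrays 1 and 5, the ones with Xist signal, Fbln5 and Gm5771 passed.

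**Figure D2:**
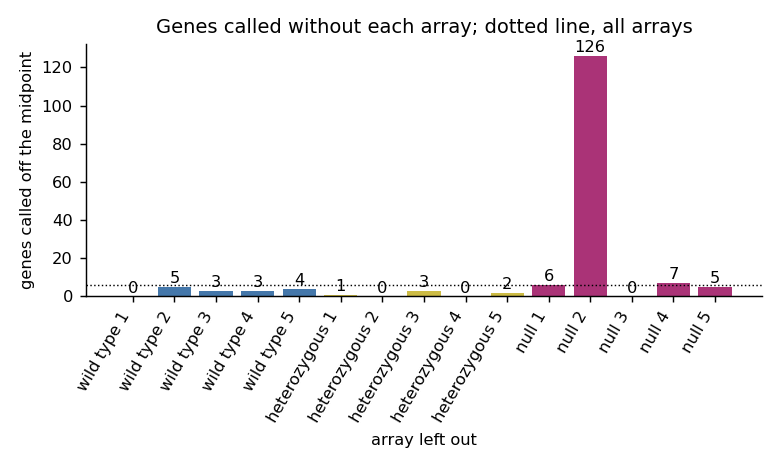
Number of genes called off the midpoint by limma when the array named on the horizontal axis is left out, coloured by genotype; the dotted line is the count over all arrays, 6. The count lies between 0 and 7 except without null array 2, where it is 126.

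Few genes separated the heterozygous arrays from all others. Heterozygous arrays lay above all 10 others in 10 genes (0.0993%) and below them in 5 (0.0497%), together 0.149% of those tested. Above were Gm5771, the mitochondrial Hsp90 chaperone Trap1, the serine palmitoyltransferase subunit Sptlc1, the exon junction factor Pym1, Tmem41a, Znrd1, Kri1, Taf1c, Kifbp and 2410002F23Rik, and below were Bckdhb, Cmpk1, Zfp729a, Rprd2 and the ubiquitin ligase Arih1. Sptlc1 was tight in heterozygotes (8.07, 8.10, 8.08, 8.07 and 8.08), with wild-type arrays up to 7.96 and null arrays up to 7.94. Its difference from the midpoint was 0.26 (SE 0.0494, adjusted p = 0.0751), and that of Trap1 0.23 (SE 0.0439, adjusted p = 0.0751); neither passed. Heterozygous and null arrays did not overlap in 580 genes (5.76%), and heterozygous and wild-type arrays in 81 (0.804%).

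Where null and wild type differed, heterozygotes lay close to wild type. In null mice 420 genes rose (4.17%) and 358 fell (3.56%) against wild type, in all 778 (7.73%), and the median position of the heterozygote over them was 0.133, with quartiles of -0.0312 and 0.272. On the wild-type side of the midpoint were 729 of the 778 (93.7%), where all tested genes had 69.2%. In 229 the heterozygous mean lay beyond wild type, in 327 between positions 0 and 0.25, in 173 between 0.25 and the midpoint, in 37 between the midpoint and 0.75, in 10 between 0.75 and null, and in 2 beyond null. With 5 arrays a group the contrast that chose these genes is orthogonal to the midpoint contrast, but both tests use the same variance estimate of a gene. A gene with a low estimate tends to a small p in both, so the share that follows is not free of this choice. Of the 778, 43.1% had an unadjusted midpoint p under 0.05, 333 genes on the wild-type side and 2 on the null side, beside 12.9% of all tested genes; 3 passed adjustment, Mrto4, Fbln5 and Slc6a15. The genes share their arrays and are not independent of each other. Most heterozygous and wild-type samples also shared low description numbers that no null sample had. The part of this number in their closeness was examined only with a linear covariate.

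**Figure D3:**
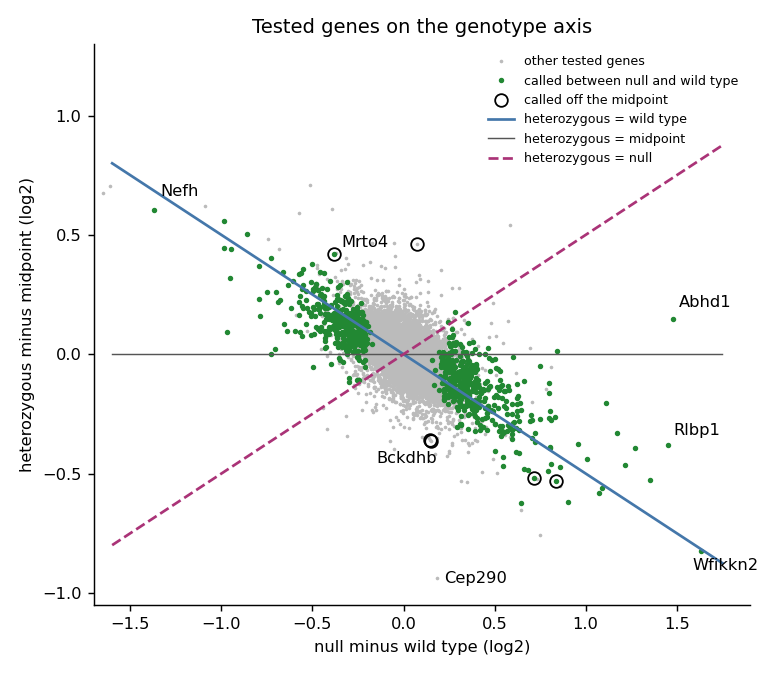
Difference between null and wild type (horizontal, log2) and between the heterozygote and the midpoint (vertical, log2) for each of the 10069 tested genes. Genes called between null and wild type (green) run along the line on which heterozygotes equal wild type, and the 6 genes called off the midpoint are circled.

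Between the homozygotes and the heterozygote the counts were uneven. Between null and heterozygous mice 798 genes passed (7.93%), 435 higher (4.32%) and 363 lower (3.61%) in null. Between heterozygous and wild-type mice limma called 0 (0%), with 381 at an unadjusted p under 0.05 (3.78%), and the model without moderation also called 0. These comparisons share the heterozygous arrays. The 798 became 454, 519 and 432 without heterozygous array 1, 2 or 3, 356 when null array 1 was omitted, 402 for null array 3 and 1815 for null array 2. Both steps had an unadjusted p under 0.05 in 64 genes with a peak in heterozygotes and 69 with a trough, together 1.32% of tested genes. In 340 of the 778 genes heterozygous and null arrays did not overlap (43.7%), and in 13 heterozygous and wild-type arrays did not (1.67%). For the 84 genes that changed by at least 1.5-fold the median position was 0.108, with 81 on the wild-type side and 58 at a midpoint p under 0.05; rises (0.126) and falls (0.136) of all sizes had similar medians.

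The same placement was seen array by array. Over the 778 genes the heterozygous arrays had median positions of 0.064, 0.127, 0.126, 0.196 and 0.189, a mean of 0.141 ± 0.0541 (SD, n = 5). Wild-type arrays, which with null arrays define the scale, lay at -0.139, -0.0495, -0.107, 0.167 and 0.157, and null arrays at 1.42, 0.732, 1.11, 0.814 and 0.888. All heterozygous arrays were thus below the midpoint and 3 of them within the range of wild-type arrays, while null array 2 was the null array nearest to the midpoint. Leaving out null array 2 raised the calls between null and wild type to 1418 and gave a median position of 0.0574 over those calls. The number of calls was 390, 443 and 450 without wild-type array 1, 2 or 3, 400 without null array 1 and 438 without null array 3, with median positions between 0.116 and 0.153. With the number in the sample description as a linear covariate 257 genes passed, at a median position of 0.107. That fit can separate the number from genotype only in part, because few wild-type and heterozygous samples had numbers in the null range. Without null arrays 1 and 5 the count was 396 and the position 0.14.

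**Figure D4:**
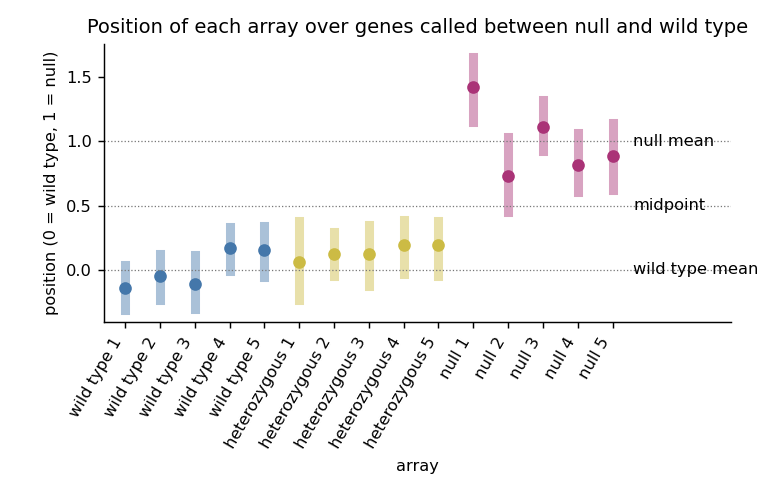
Median (point) and interquartile range (bar) of the position of each array over the 778 genes called between null and wild type, where 0 is the wild-type mean, 0.5 the midpoint and 1 the null mean. The 5 heterozygous arrays lie between 0.064 and 0.196.

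Of the 12 genes with the largest rises in null mice, 11 had a heterozygous mean on the wild-type side of the midpoint. In 5 of them, Wif1, Sult1c2, Rimklb, Penk and Rlbp1, the wild-type mean (5.01 to 5.22) lay under the filter value of 5.33, so they passed the filter mainly through null arrays and their positions only describe low values. Wfikkn2, a secreted protease inhibitor-like protein that binds growth and differentiation factors, read 7.91, 8.12, 8.41, 8.46 and 8.02 in heterozygotes, 8.04 to 8.54 in wild-type and 9.18 to 10.75 in null arrays, a position of -0.0049. The proline transporter Slc6a20a (-0.0128), the Wnt inhibitor Wif1 (-0.0409), the sulfotransferase Sult1c2 (0.0616), the polyamine regulator Azin2 (0.106), the extracellular peroxidase Gpx3 (0.111), the amino acid ligase Rimklb (0.119), the opioid precursor Penk (0.189) and the stem cell factor receptor Kit (0.217) had means on that side too. For Penk and Kit this position rested on heterozygous array 1 (6.34 for Penk, 4.82 to 5.26 in the others; 6.87 for Kit, 5.89 to 6.25 in the others), without which it was -0.0252 and 0.0791. Rlbp1, the cellular retinaldehyde-binding protein, was intermediate: 5.49, 5.16, 5.33, 5.49 and 5.49 in heterozygotes, 4.80 to 5.31 in wild-type and 6.36 to 6.67 in null arrays (position 0.238). Its heterozygous arrays lay apart from null and overlapped wild type through heterozygous array 2, and its distance from the midpoint was -0.38 (SE 0.0786, adjusted p = 0.0998). Dlk1, a membrane protein of the Notch ligand family, was at 0.318.

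Abhd1, a hydrolase-domain gene on chromosome 5 like Add1, was the exception at 0.60. Its wild-type arrays fell into 3 low values (5.78, 5.78 and 5.57) and 2 at 7.23, while heterozygotes ran from 7.07 to 7.37 and null arrays from 7.71 to 7.97. Heterozygous arrays 1, 2 and 5 were within the range of the wild-type arrays, arrays 3 and 4 (7.31 and 7.37) above it and all below null, and the wild-type mean of 6.32 lies between its sets of values.

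Of the 12 largest falls in null mice, 11 had the heterozygote on the wild-type side and Chordc1 lay at the midpoint. The neurofilament subunit Nefh (position 0.0585), the tensin Tns4 (-0.0649), the cytochrome oxidase subunit Cox7a1 (0.0487), the leukotriene C4 synthase Ltc4s (-0.0886) and the melanocortin receptor accessory protein Mrap2 (-0.0521) lay at wild type. The null means of Tns4 (5.31) and Ceacam16 (5.22) were under the filter value. Nefh read 7.11, 7.15, 7.30, 6.80 and 6.69 in heterozygotes, 6.88 to 7.39 in wild-type and 5.29 to 6.35 in null arrays, with heterozygous and null values apart. Ceacam16 (0.155), Sdf2l1 of the endoplasmic reticulum (0.164), the Hsp110 chaperone Hsph1 (0.207) and the secreted stress factor Manf (0.294) were displaced further. Closest to the midpoint were the circadian repressor Ciart (0.406), the histone gene H2bc4 (0.47) and the Hsp90 co-chaperone Chordc1 (0.501). Chordc1 was 7.61, 7.88, 7.78, 7.72 and 7.78 in heterozygotes, and overlapped with both wild-type arrays (7.85 to 8.36) and null arrays (7.09 to 7.84). H2bc4 read 9.83, 9.66, 9.41, 9.73 and 9.66, overlapping wild type (9.80 to 10.13) and null (9.05 to 9.58), and its sequence resembles that of other H2B genes.

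Genes for which the heterozygote lay with null were few and small in size. The highest positions were those of the mitochondrial ribosomal protein Mrps10 (1.13) and the mercaptopyruvate sulfurtransferase Mpst (1.05), then Tceal8 (0.934), the mitochondrial RNA-binding protein Ptcd2 (0.922) and the Rab GTPase-activating protein Tbc1d17 (0.902). Mrps10 read 6.06, 5.94, 5.90, 6.12 and 5.93 in heterozygotes and 5.81 to 6.22 in null arrays, with all heterozygous values above the wild-type range of 5.52 to 5.88. Tbc1d17 was 7.46, 7.46, 7.49, 7.62 and 7.39 in heterozygotes and 7.33 to 7.74 in null arrays, again above all wild-type arrays (7.22 to 7.31). Both rose in null mice (0.28 and 0.27, adjusted p = 0.0434 and 0.0282), and neither passed against the midpoint (Mrps10 0.18, adjusted p = 0.328; Tbc1d17 0.11, adjusted p = 0.468). These genes were chosen by their position after it was seen.

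Further genes named by their small midpoint p did not pass. Above the midpoint, beside Trap1 and Sptlc1, were the sphingosine phosphate phosphatase Sgpp2 (0.27, adjusted p = 0.0751), Tns4 (0.56, adjusted p = 0.0924), the chondroitin sulfotransferase Chst11 (0.28), Pym1 (0.235), the carnitine-acylcarnitine carrier Slc25a20 (0.23), the sialic acid esterase Siae (0.25), Pakap (0.34), the mitochondrial glutamate carrier Slc25a22 (0.27) and Nefh (0.60), the last 7 each with an adjusted p of 0.165. Slc25a20 read 8.65, 8.55, 8.53, 8.61 and 8.54 in heterozygotes, inside the wild-type range of 8.40 to 8.68 and above all null arrays (8.10 to 8.32). On the other side were Bmp4, a bone morphogenetic protein (-0.41, adjusted p = 0.0751), Crispld1 (-0.48), Rlbp1, the Ras pathway inhibitor Spred2 (-0.27) and Rimklb (-0.46), the last 4 at 0.0998, then Wfikkn2 (-0.82, adjusted p = 0.143), the spindle protein Numa1 (-0.31, adjusted p = 0.161) and Mroh7 (-0.32, adjusted p = 0.165). The wild-type means of Crispld1, Rlbp1 and Rimklb (5.32, 5.05 and 5.21) lay under the filter value of 5.33. These genes passed the filter mainly through null arrays, so their distances describe low values. Spred2 had a trough: null (8.09) and wild type (8.12) were alike in mean, and the heterozygous arrays at 7.89, 7.91, 7.67, 7.93 and 7.77 lay below all wild-type arrays and met null arrays at 7.93, the value of heterozygous array 4 and null array 5.

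Nuclear genes of oxidative phosphorylation, which build the respiratory chain and ATP synthase, had a heterozygous median close to wild type. Of 69 tested members, 61 had a heterozygous mean above the midpoint and 22 (31.9%) were above it at an unadjusted p under 0.05, beside 6% of all genes; 0 were below it and none passed adjustment. The median distance from the midpoint was 0.10, where all genes had 0.00, the median difference of null from wild type was -0.24 and that of heterozygotes from wild type -0.01. Between null and wild type 26 fell and 0 rose, where 3.56% of all tested genes fell and 4.17% rose. Over these 26 the median position was 0.0797. The number called was 46 without null array 2, 5 without null arrays 1 and 5 and 2 with the label number as a covariate. The medians of single heterozygous arrays relative to the wild-type mean were 0.066, -0.08, 0.022, 0 and -0.066, within the wild-type range of -0.12 to 0.106, and those of null arrays were -0.352, -0.076, -0.28, -0.198 and -0.238. Null array 2 overlapped with the others and the remaining null arrays did not. The count of 22 became 11 without heterozygous array 1, where all genes had 449 of 10069 in that direction, 13 without heterozygous array 3 14 without null arrays 1 and 5 and 10 with that covariate. Without null array 2 it was 31, where all genes had 988.

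Members of each complex lay mostly above the midpoint. Above the midpoint were 25 of 29 genes of complex I, 3 of 4 of complex II, 9 of 9 of complex III, 11 of 11 of complex IV and 12 of 15 of ATP synthase. Median distances from the midpoint were 0.11, 0.06, 0.09, 0.11 and 0.085 in that order. Cox7a1, the heart and muscle isoform of a complex IV subunit, read 7.62, 7.38, 7.71, 7.57 and 7.57 in heterozygotes, 7.35 to 7.97 in wild-type and 6.13 to 6.98 in null arrays (0.45 above the midpoint, unadjusted p = 0.00243 in limma, adjusted p = 0.209), so heterozygous and null arrays were apart. Ndufa4 of complex IV was 0.18 above the midpoint, Cox6b1 of the same complex 0.28 and the complex I subunit Ndufa1 0.26. Cytochrome c (Cycs), the electron carrier between complex III and complex IV, read 9.91, 9.86, 9.87, 9.80 and 9.84 in heterozygotes, within the wild-type range of 9.80 to 10.13 and above all null arrays (9.19 to 9.57).

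Nuclear respiratory factor 1 is known to bind many promoters of this group, and its core TGCGCA, which reads the same on both strands, was searched in the 250 bases before each transcription start in RefSeq (GRCm38.p6). It was in 12 of 63 windows of the 58 matched members (19%), in 11.6% of the windows of tested genes and in 6.43% of all 32851 windows. Only windows that held the core were considered for display, and those of Cox5b of complex IV and the complex I subunit gene Ndufs6 are shown. The level of Cox5b fell by 0.31 in null mice. Sequences run 5′ to 3′ on the gene's strand, with the core in capitals.
Cox5b (chr1:36691237-36691486, plus strand): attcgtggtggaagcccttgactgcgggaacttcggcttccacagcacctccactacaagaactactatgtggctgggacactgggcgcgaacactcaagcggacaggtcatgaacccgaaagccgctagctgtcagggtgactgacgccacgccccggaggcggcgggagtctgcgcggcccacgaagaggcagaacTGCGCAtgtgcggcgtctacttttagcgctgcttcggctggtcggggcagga
Ndufs6 (chr13:73328483-73328732, minus strand): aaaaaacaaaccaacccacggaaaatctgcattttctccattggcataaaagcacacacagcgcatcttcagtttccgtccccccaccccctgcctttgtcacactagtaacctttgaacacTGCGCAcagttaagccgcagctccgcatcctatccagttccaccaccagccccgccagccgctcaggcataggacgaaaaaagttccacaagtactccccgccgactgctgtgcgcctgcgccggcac

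Mitochondrial ribosomal proteins, which translate the subunits encoded in mitochondrial DNA, ran in parallel. Of 75 tested, 66 lay above the midpoint, where 4956 of all 10069 tested genes did, and the median distance was 0.07. At an unadjusted p under 0.05, 13 were above (17.3%, beside 6% of all genes) and 1 below (1.33%, beside 6.9%). In null mice 9 fell and 1 rose, at a median position of 0.20, where 3.56% of all tested genes fell and 4.17% rose. The number called was 25 without null array 2 (median position 0.0986), 3 without null arrays 1 and 5 and 1 with the label number as a covariate (position 0.675). Mrpl27 (0.22 above the midpoint), Mrpl35 (0.185), Mrps25 (0.21) and Mrps28 (0.24) had the smallest p-values, each with an adjusted p between 0.186 and 0.278, and of these 4 only Mrps25 also fell in null mice (-0.32). The count of 13 became 8 without heterozygous array 1 or 4 and 22 without null array 2. Cytosolic ribosomal proteins gave 1 above and 0 below of 53, with a median of 0.02.

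Folding genes of the endoplasmic reticulum were displaced further towards null. Among 29 tested, 15 fell and 0 rose in null mice, where 3.56% of all tested genes fell and 4.17% rose. The median position of the 15 that fell was 0.306, from 0.0913 for Pdia6 to 0.61. The size of this displacement depended on the setting. Omitting null arrays 1 and 5 left 9 called genes at a median position of 0.222, and omitting null array 2 gave 17 at 0.288. Fitting the label number left only 4 called genes, at 0.186, beside 0.107 for all genes called in that fit. The list's median difference from wild type was -0.07 in heterozygotes and -0.33 in null mice, and 22 of 29 lay above the midpoint (median 0.08). At an unadjusted p under 0.05, 3 were above the midpoint (10.3%, beside 6% of all genes) and 0 below. Those above were the disulfide isomerase Pdia6 (0.17), the lectin-like chaperone Calr (0.16) and the Hsp70 of this compartment, Hspa5 (0.11). Array medians relative to the wild-type mean were -0.122, -0.042, -0.072, -0.02 and -0.148 in heterozygotes, -0.08 to 0.098 in wild-type and -0.42 to -0.162 in null mice. All heterozygous arrays were thus under 0 and above all null arrays, with 3 of them inside the wild-type range. The count of 3 became 6 without heterozygous array 5 and 5 without null array 2 or 5.

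Pdia6 read 10.85, 10.89, 10.99, 10.95 and 10.78 in heterozygotes, 10.90 to 10.95 in wild-type and 10.33 to 10.76 in null arrays, and Calr 10.86, 10.80, 10.91, 10.87 and 10.82, where wild-type arrays began at 10.82 and null arrays ran from 10.32 to 10.74. For both genes heterozygous arrays lay above all null arrays and overlapped wild type. Sdf2l1, a chaperone cofactor, was lower in null mice by 0.95 and read 8.54, 8.43, 8.50, 8.51 and 8.16 in heterozygotes; null array 2 at 8.44 overlapped with them, while the other null arrays ran from 7.16 to 7.92. Several genes of this group are known to carry the endoplasmic reticulum stress element, searched on both strands as CCAAT and CCACG with any 9 bases between them. It was in 9 of 27 windows of the 24 matched members (33.3%), in 0.114% of the windows of tested genes and in 37 of all windows (0.113%). The windows of Pdia6, Calr and Hspa5, the members with the smallest midpoint p, are shown in the same way, with the element in capitals, which in Calr is on the opposite strand.
Pdia6 (chr12:17266339-17266588, plus strand): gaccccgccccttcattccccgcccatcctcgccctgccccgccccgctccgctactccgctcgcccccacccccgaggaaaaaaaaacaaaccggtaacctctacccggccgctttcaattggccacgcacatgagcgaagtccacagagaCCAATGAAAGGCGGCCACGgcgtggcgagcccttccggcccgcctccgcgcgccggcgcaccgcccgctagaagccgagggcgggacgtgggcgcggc
Calr (chr8:84846932-84847181, minus strand): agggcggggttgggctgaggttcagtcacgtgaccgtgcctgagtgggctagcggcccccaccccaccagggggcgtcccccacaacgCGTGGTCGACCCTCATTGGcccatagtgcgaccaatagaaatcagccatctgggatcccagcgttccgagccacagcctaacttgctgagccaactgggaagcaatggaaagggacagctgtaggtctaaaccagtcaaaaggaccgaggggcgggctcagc
Hspa5 (chr2:34771840-34772089, plus strand): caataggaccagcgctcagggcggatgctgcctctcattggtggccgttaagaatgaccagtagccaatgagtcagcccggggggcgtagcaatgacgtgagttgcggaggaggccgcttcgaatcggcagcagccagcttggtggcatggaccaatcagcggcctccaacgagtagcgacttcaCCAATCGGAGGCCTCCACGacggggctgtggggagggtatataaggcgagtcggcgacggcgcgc

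Heat shock genes, chaperones of the cytosol and other compartments, spread from wild type to the midpoint. Of 19 tested, 10 fell and 2 rose in null mice, where 3.56% of all tested genes fell and 4.17% rose. The median position of the 12 was 0.235, up to 0.501 for Chordc1. Relative to the midpoint 5 were above (26.3%, beside 6% of all genes) and 1 below (5.26%, beside 6.9%) at an unadjusted p under 0.05. Above were the small heat shock protein Cryab (0.26, position 0.0112), Hsph1 (0.23), the mitochondrial co-chaperonin Hspe1 (0.26, position -0.0281), Fkbp4 and Stip1, and below was the cold-induced RNA-binding protein Rbm3 (-0.27, position -0.13). Array medians relative to wild type were -0.068, -0.068, -0.078, -0.07 and -0.042 in heterozygotes, within the wild-type range of -0.09 to 0.056, and -0.378 to -0.168 in null mice, so null arrays stood apart. The count below was 2 without heterozygous array 5 or null array 3. The heat shock element, searched on both strands as GAA, TTC and GAA with any 2 bases between each, was in 2 of 21 windows (9.52%) of 15 matched members, beside 0.352% of the windows of tested genes and 0.466% of all windows.

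Receptor tyrosine kinases lay below the midpoint in heterozygotes. These receptors pass growth factor signals across the membrane. Of 21 tested, 7 rose and 1 fell in null mice, with a median position of -0.0812, where 4.17% of all tested genes rose and 3.56% fell. Heterozygotes lay below the midpoint at an unadjusted p under 0.05 in 9 (42.9%), beside 6.9% of all genes, and above it in 0; the median distance was -0.12, and none passed adjustment. The insulin receptor Insr (-0.25, SE 0.0635, adjusted p = 0.167), the VEGF receptor Kdr (-0.28), the IGF receptor Igf1r (-0.34) and the PDGF receptor Pdgfra (-0.49) had the smallest p-values. Insr read 8.09, 8.25, 8.25, 8.24 and 8.13 in heterozygotes, within the wild-type range of 8.08 to 8.33 and below all null arrays (8.43 to 8.78). Each of these 4 rose in null mice and had a heterozygous mean under that of wild type, and in Pdgfra alone of them heterozygous and null arrays overlapped.

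Medians of the single arrays over the 21 kinases, relative to the wild-type mean, were -0.114, -0.012, -0.012, 0.048 and -0.046 in heterozygotes, -0.09 to 0.114 in wild-type and 0.344, 0.168, 0.344, 0.188 and 0.024 in null mice. Null array 5 lay among the other genotypes and the other 4 null arrays above them. The count of 9 became 5 without wild-type array 5 and 6 without null array 2 (28.6%, beside 9.96% of all genes). It was 7 without heterozygous array 1 (33.3%, beside 4.29%) and 10 without that array and null arrays 1 and 5. Pdgfra and Kdr are also members of the stromal and endothelial lists, whose medians lay below the midpoint too. The 20 stromal genes had a median distance of -0.15 from the midpoint, with Dcn (-0.48) and Pdgfra below it at an unadjusted p under 0.05. The 9 endothelial genes had one of -0.16, with Cdh5 (-0.47), Kdr and Plvap (-0.285) below it at that threshold. The wild-type and heterozygous means of Cdh5 (5.29 and 5.09) lay under the filter value of 5.33. It passed the filter mainly through null arrays, so its distance describes low values. The mean level of the endothelial list was 5.84 to 6.28 in wild-type, 5.87 to 6.00 in heterozygous and 5.84 to 6.47 in null arrays, and that of the stromal list 6.79 to 7.46, 6.78 to 7.21 and 6.92 to 7.51. In whole tissue, fewer cells of a type and less RNA per cell cannot be told apart, and the part of these cells in the kinase values was not tested. The stromal count of 2 became 4 or 5 without wild-type array 3, heterozygous array 4 or null array 5.

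A list of carriers and signalling antagonists, most of them secreted, had a median below the midpoint. Of 21 tested, 7 rose and 0 fell in null mice at a median position of 0.118, where 4.17% of all tested genes rose and 3.56% fell. At an unadjusted p under 0.05, 5 (23.8%) lay below the midpoint, beside 6.9% of all genes, and 0 above (median -0.15). They were Wfikkn2, Wif1 and the lipid carrier Apoe (-0.16), and further Bmp4, a secreted ligand and no antagonist, and Rlbp1, which binds retinoids inside the cell. Wif1 and Rlbp1 had wild-type means (5.22 and 5.05) under the filter value of 5.33 and passed the filter mainly through null arrays. Bmp4 read 6.70, 6.77, 6.86, 7.17 and 7.04 in heterozygotes, 6.99 to 7.17 in wild-type and 7.33 to 7.77 in null arrays, with 3 heterozygous arrays below all wild-type arrays and all of them below null.

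**Figure D5:**
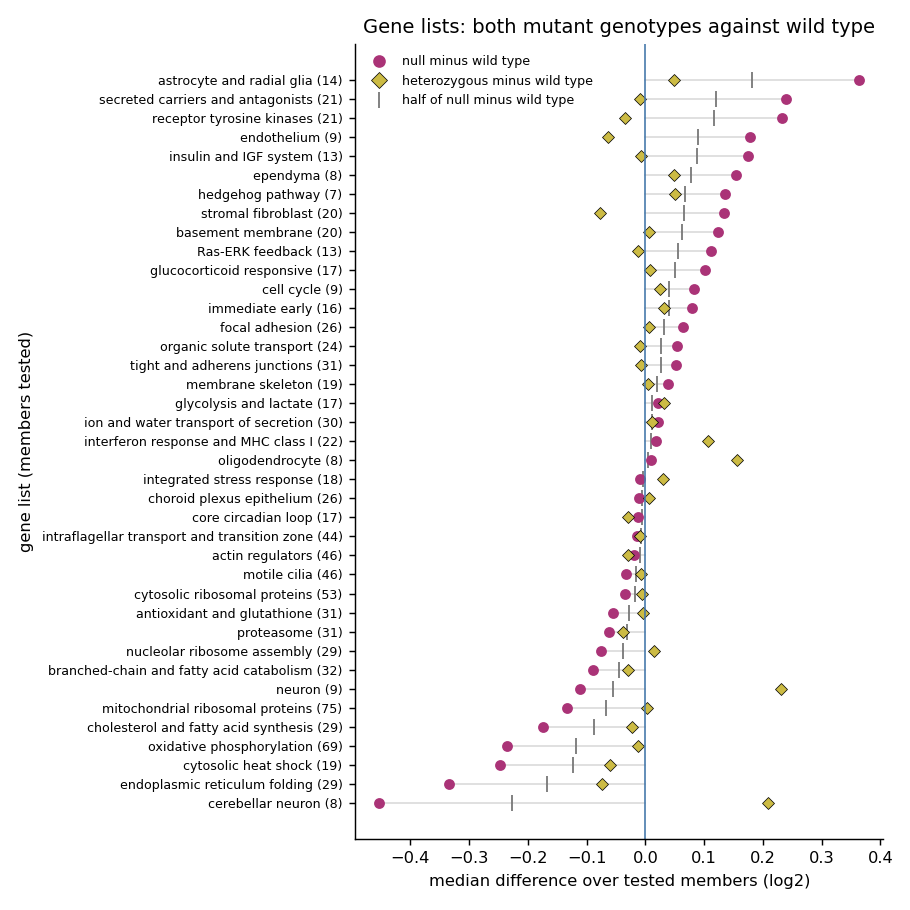
Median log2 difference from wild type over the tested members of each gene list (number in brackets) in null (circles) and heterozygous mice (diamonds); ticks mark the additive midpoint. Diamonds of most lists lie near 0, with the neuron and cerebellar neuron lists at 0.23 and 0.21 on the side opposite to null, while folding genes of the endoplasmic reticulum and heat shock genes lie between 0 and the tick.

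Metabolic lists were mixed. At an unadjusted p under 0.05, 6% of all tested genes lay above the midpoint and 6.9% below it. Among 32 genes of branched-chain and fatty acid catabolism Bckdhb was called, 5 others lay above the midpoint at an unadjusted p under 0.05 and 2 below, and the median was -0.01. The carnitine palmitoyltransferase Cpt2 (0.22) and the epimerase Mcee (0.17) were above, and Aldh6a1 of valine breakdown below (-0.20). The 5 above became 2 without heterozygous array 4 and 3 without wild-type array 4 or 5, heterozygous array 3 or null array 3. Antioxidant and glutathione genes had 4 above and 4 below of 31 (1 and 2 without heterozygous array 1), with a median position of 0.0371 over the 10 that passed between null and wild type. Of these, Ltc4s (0.51) and the peroxiredoxin Prdx3 (0.20) lay above the midpoint and the glutathione transferase Gstm1 (-0.26) and the quinone reductase Nqo1 (-0.31, position 0) below it. Sterol and fatty acid synthesis had 24 of 29 above the midpoint with a median of 0.07, which was 0.00 without null arrays 1 and 5, and its regulator Srebf1 was 0.23 below. Interferon response and MHC class I genes had 5 above (22.7%, beside 6% of all genes) and 0 below of 22. In the median heterozygotes were 0.11 over wild type and null mice 0.02. The count above was 1 without heterozygous array 5 and 3 without heterozygous array 1 or null array 3.

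Lists of the functions nearest to the plexus epithelium had small median distances. At an unadjusted p under 0.05, 6% of all tested genes lay above the midpoint and 6.9% below it. Ion and water transport genes of secretion had 0 above and 2 below of 30, the channel Trpm3 (-0.19) and the kinase Wnk4 (-0.35, position 0.00567), and the 26 epithelial markers 0 above and 1 below (Wfikkn2), with list medians of 0.005 and 5e-04. The ion transport count below was 4 without heterozygous array 4 and 6 without null array 2. Solute transport genes had 2 above (8.33%) and 4 below (16.7%) of 24, with a median of -0.015. Among them Slc6a20a (-0.56) and the organic anion transporter Slc22a8 (-0.24) were below and the zinc transporter Slc39a4 above (0.27). Junction genes had 1 above (3.23%) and 4 below (12.9%) of 31. Their median was -0.049, and 8 of the 31 had a heterozygous mean above the midpoint. The junction scaffold Tjp1 read 0.45 higher in null mice and was at wild type in heterozygotes (0.23 below the midpoint). Membrane skeleton genes, the partners of adducin, had 1 above, the spectrin Sptb (0.16), and 1 below, Epb41l2 (-0.21), of 19, with a median of 0.00; Slc2a1, Mpp1 and Add1 passed between null and wild type at a median position of 0.449. Actin regulators had 2 above and 4 below of 46 (1 and 1 without heterozygous array 1), and motile cilia genes 4 and 3 of 46 (1 and 5 without heterozygous array 5, 8 and 5 without null array 2, 9 and 3 without null array 5, 12 and 1 with the label number as a covariate). Cep290 of the ciliary transition zone had a heterozygous mean 0.94 below the midpoint (SE 0.252, adjusted p = 0.186). It read 4.40, 4.44, 4.48, 5.55 and 5.17 in heterozygotes, 5.12 to 6.19 in wild-type and 4.63 to 6.31 in null arrays, so the first 3 heterozygous arrays lay below all others. The heterozygous mean of 4.81 lay under the filter value of 5.33. Cep290 passed the filter mainly through wild-type and null arrays, so its distance rests on low values.

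Neural markers lay above the midpoint through 1 array. The 8 cerebellar neuron markers had a median distance of 0.47 and the 9 neuron markers 0.22, which became 0.09 and 0.01 without heterozygous array 1; the 8 oligodendrocyte markers went from 0.17 to -0.04. Gabra6, a GABA receptor subunit typical of granule cells of the cerebellum, read 7.80 in that array, 5.15 to 5.67 in the other heterozygous arrays and 5.49 to 5.69 in wild-type arrays. Mean cerebellar marker levels were 6.28 to 6.40 in wild-type and 5.745 to 6.33 in null arrays. With that mean as a covariate limma called 1 gene off the midpoint, Mrto4. Without heterozygous array 1 the oxidative phosphorylation list had a median of 0.08, the receptor kinase list -0.13 and the median position over genes called between null and wild type was 0.145.

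Without null array 2, the null array nearest to wild type, more genes were called off the midpoint. The 126 genes called then included the 6 called over all arrays, and 57 were above (0.566%) and 69 below the midpoint (0.685%). In 115 the heterozygous mean lay outside both homozygous means. Between null and wild type 99 of the 126 passed as well, all 99 with the heterozygote on the wild-type side. These 99 were chosen by passing both contrasts, which are not orthogonal once the groups are unequal. Their side of the midpoint is therefore no separate result. Over all 1418 genes called between null and wild type in that fit the median position was 0.0574. The 126, from which examples were chosen after their values were seen, held Calr, Cryab, Cox6b1 and Atp5k above the midpoint and Bmp4, the proteoglycans Dcn and Bgn and the protease inhibitor A2m below it. With array weights estimated from the data in place of leaving an array out, 78 genes were called. The median distance from the midpoint over all genes was 0.00 in both fits.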

How the data were processed

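Total RNA of mouse choroid plexus was hybridised to Affymetrix arrays, 1 per sample, after labelling of 250 ng per the labels' protocols. The authors deposited RMA values from Affymetrix Expression Console 1.1, per the submitters' processing notes. That these deposited values are log2 was read from their range (1.57 to 13.89, array medians 4.78 to 4.88), and they were used as deposited. RMA scales arrays to one distribution, so a shift of most genes cannot be seen, and low values are compressed. Scanner files, detection calls and hybridisation batches were not used here, and the number of arrays limits the precision.

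Of 35556 probe sets, GEO's platform annotation listed 23410, with 1 gene symbol for 21789 and several for 1621; 12146 were unnamed here, and 21698 of the single symbols matched RefSeq. For 999 genes with more than 1 probe set the one of highest mean was kept. A gene was tested where 5 or more arrays exceeded 5.33, the overall median of the single-symbol probe sets. limma 3.58.1 (R 4.3.3) was fitted over all 15 arrays with lmFit and eBayes, 12 residual degrees of freedom, and p-values were adjusted by Benjamini-Hochberg over 10069 genes at a threshold of 0.05. The fitting code was tested on simulated data. No 2 arrays were copies of each other (smallest SD of a pair's difference 0.232 over 105 pairs).

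Members and gene lists were chosen with earlier results of these data known. Named were Add1, 12 genes in each direction by the midpoint contrast (called genes, then smallest p), the 12 largest rises and falls between null and wild type, and up to 4 members of each list by midpoint p; gene models were replaced by the next gene. Others, named for a small count or beside these, were chosen after their values were seen. Replicate numbers of the labels did not pair the arrays: correlations of same-numbered deviations ran from -0.253 to 0.238, with 4 of 15 above 0.1. Alternatives changed the filter, probe sets, normalization, variance model, array weights, block, covariates and single arrays.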

Additional observations from a re-analysis of the deposited data

Results flagged for a closer look

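Among groups of 5 arrays, 15 of the 171 examined held a value far from the other 4 (gap over range above 0.71), where chance marks about 1 in 20 groups. Heterozygous array 1 stood apart in the mean of the ependyma markers at 7.735, the neuron markers at 7.38, the cerebellar neuron markers at 7.93 and the oligodendrocyte markers at 7.09. It was also high for the opioid precursor Penk at 6.34, with a gap of 1.08 to the nearest heterozygous array, and apart for the sulfotransferase Sult1c2 at 4.75. Wild-type array 5 stood apart in the macrophage markers at 6.10 and the meninges markers at 7.49.

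Among genes called off the midpoint, wild-type array 1 of Bckdhb read 7.73 and wild-type array 3 of Cmpk1 8.44, both on the side away from the heterozygotes. The tensin Tns4 read 6.68 in wild-type array 2 and the Wnt inhibitor Wif1 5.77 in wild-type array 4. The carnitine carrier Slc25a20 read 8.32 in null array 2, nearest to the heterozygotes of the null arrays, and the chaperone Hsph1 8.24 in null array 1. Sdf2l1 of the endoplasmic reticulum read 8.16 in heterozygous array 5.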

How the results depend on the processing

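The number of genes called off the midpoint, 6 over all arrays (2 higher, 4 lower), changed with most settings, and the cause was not tested. It was 0 with no filter (0 and 0) and 0 without moderation (0 and 0), 10 with the stricter filter (4 higher), 8 after repeated quantile normalization (4 higher), 4 with arrays centred on their median (1 higher), 9 with a variance trend and robust fit (4 higher) and 78 with array weights (30 higher, 48 lower). A covariate for the label number gave 4 (1 higher). It was 2 without the null arrays with Xist signal (1 and 1), 1 with Xist as a covariate (1 higher, 0 lower), 3 without those arrays and heterozygous array 1 (1 lower) and 1 with the cerebellar marker mean as a covariate (1 higher, 0 lower). All probe sets and the label number as a random block gave 5 and 6. With the replicate block, which the numbers do not support as a pairing, 1 gene was called, Fbln5 (0 higher, 1 lower), and 518 between null and wild type.

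Between null and wild type the count of 778 became 1320 with array weights, 493 without moderation, 257 with the label number as a covariate, 396 without the arrays with Xist signal and 315 with Xist as a covariate. Between null and heterozygous mice the 798 became 500, 1297, 469, 195, 330, 248, 295 and 266 with no filter, array weights, no moderation, the label number, no Xist arrays, Xist as a covariate, no Xist arrays and no heterozygous array 1, and the cerebellar mean. Between heterozygotes and wild type 1 was called with array weights, without the Xist arrays and with Xist as a covariate.

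Leaving out single arrays gave 0 to 126 genes off the midpoint (0 to 57 higher, 0 to 69 lower), 390 to 1418 between null and wild type, 356 to 1815 between null and heterozygous mice, 0 to 1 between heterozygous and wild-type mice, and median positions of 0.0574 to 0.189. In other settings the position was 0.107 to 0.156. The difference of Add1 from the midpoint ranged from -0.0395 to 0.0205. Of the named midpoint differences under all alternatives, 597 kept their direction and their side of the threshold, 92 lost it and 51 gained it. List medians near 0 and that of the oligodendrocyte list (0.17, -0.04 without heterozygous array 1) changed sign in some settings.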
